A study of Rattus norvegicus with 30 samples.

Results

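The uninjured sciatic nerve (SN) was compared with the uninjured dorsal root ganglia (DRG) that send their axons through it. Members were chosen by sample title, and are the 3 SN arrays and the 3 DRG arrays of day 0, 6 of the 30 arrays in the series. All animals were adult male Sprague-Dawley rats with no genetic change. SN tissue was a piece of the proximal nerve of 0.5 cm, and DRG tissue came from the lumbar ganglia L4 to L6. The other 24 arrays hold both tissues at 1, 4, 7 and 14 d after a segment of the left sciatic nerve was resected, and serve here only as a check in other arrays. How many rats an array holds, and whether an SN and a DRG array share rats, is not given in the sources used here, so that p-values measure the spread between these samples. The labels describe the same operation for all groups and give day 0 as the time of collection, and the study's methods use it as the control. A sham operation is not described in the sources used here.

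A dorsal root ganglion contains the cell bodies of sensory neurons, wrapped by satellite glia, together with the first stretch of their myelinated axons. The sciatic nerve contains the axons of the same neurons and of motor neurons, but no sensory cell bodies. Around its axons lie myelinating and non-myelinating Schwann cells, an endoneurium of fibroblasts, collagen, capillaries and resident macrophages, a perineurium of tight, barrier-forming cells, and an outer epineurium with fat, larger vessels and mast cells. Most messenger RNA of a neuron stays in its cell body, although some is carried into the axon.

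Each array measures a gene by a probe of 60 bases. The probes below were chosen because they stand for the main gene groups. They were also chosen because their coordinates in the array annotation cover more than 60 bases of genome. A probe across an exon junction of the spliced transcript would have such a span, but exon positions were not checked. They are shown whole, in lower case with no part set apart.

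Rbfox3 (rn4, chr10:108500430-108501044, - strand): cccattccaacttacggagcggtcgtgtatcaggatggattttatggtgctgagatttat
Uchl1 (rn4, chr14:44117705-44118696, - strand): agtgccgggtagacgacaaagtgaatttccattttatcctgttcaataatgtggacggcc
Cldn19 (rn4, chr5:139839975-139840135, + strand): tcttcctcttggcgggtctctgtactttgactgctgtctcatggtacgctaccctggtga
Cd9 (rn4, chr4:162283341-162291913, - strand): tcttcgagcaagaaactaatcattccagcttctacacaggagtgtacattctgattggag
Dcn (rn4, chr7:35037331-35041132, + strand): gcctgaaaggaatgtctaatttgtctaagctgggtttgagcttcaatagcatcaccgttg
Fabp4 (rn4, chr2:93536175-93538589, + strand): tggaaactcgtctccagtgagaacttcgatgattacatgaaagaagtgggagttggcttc
Mcpt1 (rn4, chr15:34590324-34590791, - strand): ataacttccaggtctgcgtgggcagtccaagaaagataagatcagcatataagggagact
Vwf (rn4, chr4:161853997-161854486, + strand): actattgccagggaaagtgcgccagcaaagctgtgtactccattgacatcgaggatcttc

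Rbfox3 (the neuronal nuclear antigen NeuN) and Uchl1 (a ubiquitin hydrolase abundant in neurons) stand for neurons, Cldn19 (the claudin of Schwann cell junctions) and Cd9 (a tetraspanin) for myelin, Dcn (decorin) for fibroblasts, Fabp4 (a fatty acid binding protein) for fat, Mcpt1 (a protease) for mast cells and Vwf (von Willebrand factor) for endothelium.

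Signals are given as normalized signal, the log2 intensity of a probe minus the 75th percentile of its own array, and a difference is always SN minus DRG on the log2 scale, so that a negative difference means more signal in DRG. A gene was called where the Benjamini-Hochberg adjusted p of the limma fit was under 0.05 and the fold was over 2. Of 30743 tested probes, 6581 (21.4%) were higher in SN and 5015 (16.3%) higher in DRG, together 37.7% of all probes tested. The counts of each list below are to be read beside these shares. Arrays of a tissue correlated at r from 0.983 to 0.993 in SN and from 0.989 to 0.994 in DRG, and arrays of different tissues at 0.859 to 0.866, over 25485 probes, as a description. The median difference over all tested probes was 0.23, and the median of a list is to be read beside that value. The arrays of the 2 tissues did not overlap for 23329 of the 30743 tested probes, so that lack of overlap was common and sets no gene apart. As in any bulk tissue, fewer cells of a type and less RNA per cell cannot be told apart.

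The size of the differences was unequal on the 2 sides. Among the probes higher in SN the median fold was 2.71, and 154 lay between 10 and 50-fold and 2 above 50-fold. Among those higher in DRG the median fold was 4.46, with 1089 between 10 and 50-fold and 524 above 50-fold. Of these 524, 191 were well above background on all 6 arrays and 333 were not well above background on every SN array. All 3 SN arrays but no DRG array measured 385 probes above background, and all 3 DRG arrays but no SN array measured 746.

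**Figure D1:**
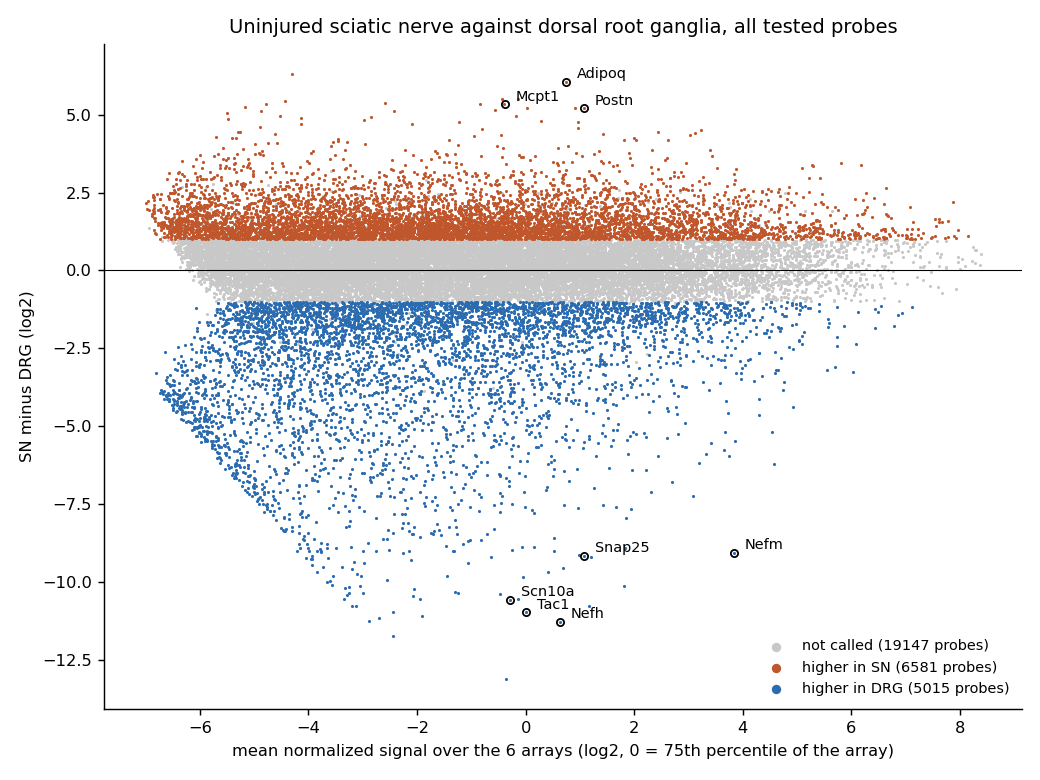
SN minus DRG difference (log2, y axis) of each of the 30743 tested probes against its mean normalized signal over the 6 arrays (log2, x axis), coloured by call. The 6581 probes higher in SN stay mostly within 10-fold, while the 5015 higher in DRG reach differences beyond -10.

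The arrays themselves were uneven in 2 respects that touch the results. DRG replicate 1 shared a slide with the 3 SN arrays, whereas DRG replicates 2 and 3 were on another slide. DRG replicate 1 had 32602 probes well above background, against 26941 and 28560 in the other DRG arrays and 30227 to 31317 in SN. Within the shared slide, with 3 SN arrays against this 1 DRG array, 6168 probes were called higher in SN and 4811 higher in DRG. There the spread came from SN alone, and the lone DRG array was assumed to vary as the SN arrays did. Second, SN replicate 1 stood apart in skeletal muscle genes. Its mean over the 11 muscle markers was 7.19, against 2.84 and 3.37 in SN replicates 2 and 3, and the DRG arrays were at 1.36, 4.30 and 2.75. The actin gene of skeletal muscle Acta1 was at 7.68, 3.12 and 3.59 in SN and at 1.00, 4.42 and 2.82 in DRG. The tissues overlapped, and with limma none of the 11 muscle markers was called, with adjusted p from 0.0878 to 0.785, and 0 of them had an unadjusted p under 0.05. With all 30 arrays in the fit 2 of them were called higher in SN, and the methods' t-test without adjustment called none. Their median difference was 1.92 with that array and 0.62 without it. The 6 blood markers, among them the globin gene Hbb-b1, were lowest in SN replicate 3, with a mean of -0.12 against 1.70 and 1.72 in the other SN arrays and 0.60 to 1.30 in DRG.

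**Figure D2:**
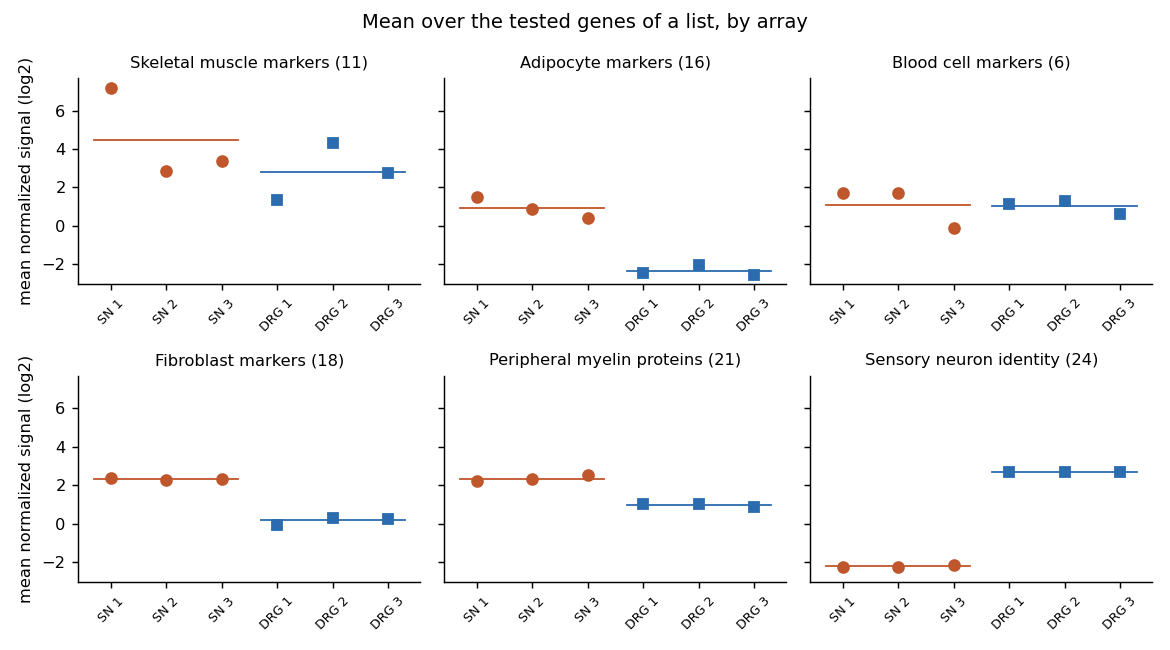
Mean normalized signal (log2, y axis) over the tested genes of 6 lists in each of the 6 arrays (x axis), with lines at the mean of each tissue. Muscle markers stand out at 7.19 in SN 1, blood markers dip to -0.12 in SN 3, and the lists of neurons and fat separate the SN arrays from the DRG arrays.

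Genes of sensory neurons were mostly higher in DRG. Over the 9 neuronal lists, 112 of 150 tested genes were higher in DRG, which is 74.7% against 16.3% of all probes, and 10 were higher in SN. In the list of sensory neuron identity, 22 of 24 tested genes were higher in DRG, none was higher in SN, and the median difference was -4.84. Rbfox3 had normalized signals of -4.05, -5.99 and -6.00 in SN and of 3.39, 3.28 and 3.26 in DRG. All SN arrays were far below all DRG arrays, and the difference was -8.66 (SE 0.52, adjusted p = 2.53e-05). The RNA-binding protein gene Elavl4 (HuD) differed by -9.56 and Avil, which encodes the actin-binding advillin of sensory neurons, by -7.65. The homeobox genes of the sensory lineage followed the same direction, Isl1 with a difference of -5.10, Pou4f1 of -3.92, and Isl2 and Drgx at least 120-fold and 71.3-fold lower in SN, where neither was well above background on any array. Runx1, a regulator of nociceptor identity, differed by -1.43, while Runx3 (-0.42) and Etv1 (-0.51), which mark proprioceptors, were under the 2-fold limit.

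Most of these transcripts were still marked as above background in the nerve. Of the 112 neuronal genes higher in DRG, 87 were well above background on all 3 SN arrays, 8 on 1 or 2 and 17 on none. Some of the 87 were dim there. Nefh, Tac1, Scn10a and Calcb had SN means of -5.01, -5.47, -5.58 and -5.41. The SN median of all tested probes was -1.61. Others were brighter. Uchl1 had 1.27, 1.30 and 1.76 in SN and 6.06, 6.01 and 6.00 in DRG. Sncg, which encodes gamma-synuclein, had 5.50, 5.34 and 5.66 in SN and 7.42, 7.38 and 7.27 in DRG, a difference of -1.86. The growth cone protein gene Gap43 differed by -3.83 (SE 0.22, adjusted p = 1.95e-05), with 1.60, 1.83 and 0.98 in SN.

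Among named genes above background on all 6 arrays, the largest difference belonged to the axonal skeleton. Nefh, the heavy neurofilament subunit, had -5.05, -5.44 and -4.54 in SN and 6.34, 6.28 and 6.21 in DRG. The groups were far apart, with a difference of -11.28 (SE 0.22, adjusted p = 2.55e-07), a fold of 2495. The light and medium subunits Nefl and Nefm differed by -10.77 and -9.07, alpha-internexin (Ina) by -8.67 and peripherin (Prph) by -6.21. The intermediate filaments of non-neuronal cells went the other way, with Vim (vimentin) 1.28 and Nes (nestin) 2.14 higher in SN. Des, the desmin of muscle, was 2.43 higher in SN at 4.25, 1.68 and 1.83 and at -0.72, 1.15 and 0.03 in DRG, and it was 1.60 higher without SN replicate 1. In the list of microtubule and transport genes, 17 of 22 were higher in DRG and none in SN, with a median of -3.19. The dynein intermediate chain Dync1i1 differed by -9.13 and neuron-specific Tubb3 by -5.54, whereas the ubiquitous kinesin Kif5b differed by 0.17 (adjusted p = 0.199).

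Synaptic and secretory genes were likewise higher in DRG. Of 26 tested, 23 were higher in DRG, with a median of -4.63. Snap25, a membrane fusion protein of the synapse, had -3.56, -3.94 and -3.03 in SN and 5.66, 5.69 and 5.62 in DRG. Every DRG array exceeded every SN array by more than 8 log2 units, and the difference was -9.16 (SE 0.22, adjusted p = 5.48e-07). Slc17a6, the vesicular glutamate transporter VGLUT2 by which sensory neurons load their transmitter, was at least 1176-fold lower in SN, where no array measured it above background. The gene called higher in SN was Sv2b (1.02), and another probe of Sv2b was called in the opposite direction. This call was lost under the 5 other scalings tried, with differences of 0.50 to 0.97, and without DRG replicate 1 (0.94) or SN replicate 3 (0.83).

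Ion channels and sensory receptors separated by member. Among the voltage-gated sodium channels, 9 of 12 were higher in DRG. Scn10a, the channel Nav1.8 of nociceptors, had -5.64, -5.56 and -5.53 in SN and 5.06, 5.03 and 4.93 in DRG, a difference of -10.58 (SE 0.09, adjusted p = 1.15e-07). Scn11a (Nav1.9) was at least 6193-fold lower in SN, and Scn9a (Nav1.7) differed by -4.75. These channels of pain neurons had no overlap between the tissues. Scn7a, a sodium-sensing channel of glia, was at 5.31 to 5.85 in SN and 5.34 to 5.36 in DRG and was not called. The auxiliary subunit Scn4b had 3.30, -1.40 and -0.73 in SN and 6.32, 6.26 and 6.25 in DRG, and its difference moved from -5.89 to -7.34 without SN replicate 1. The calcium channel subunits Cacnb1 and Cacna2d1, which skeletal muscle also uses, moved the same way, from -3.51 to -4.34 and from -1.84 to -2.61. SN replicate 1 was the array with high muscle markers, whose part in these values was not tested.

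Among the transducers of painful and mechanical stimuli, 15 of 19 tested genes were higher in DRG, with a median of -3.51. The purinergic receptor P2rx3 differed by -7.11, the acid-sensing channel Asic3 by -7.36 and the cold receptor Trpm8 by -5.33, and Trpa1, the receptor for irritants, was at least 28.4-fold lower in SN. The mechanically gated Piezo channels went in opposite directions. Piezo2, the touch channel of sensory neurons, had 3.35, 3.60 and 3.26 in SN and 5.07, 5.01 and 4.89 in DRG, a difference of -1.59 (SE 0.12, adjusted p = 6.34e-05). Piezo1, which is used by endothelium and other non-neuronal cells, had -0.35, -0.87 and -0.91 in SN and -2.19, -2.16 and -2.02 in DRG, a difference of 1.41 (SE 0.17, adjusted p = 4.23e-04). In calcium and HCN channels, 10 of 17 were higher in DRG, among them the N-type channel Cacna1b (-6.54), and 4 were higher in SN, among them the L-type channel of muscle and vessels Cacna1c (2.64-fold). For Cacna1d, called higher in SN, other probes of the gene were called higher in DRG.

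**Figure D3:**
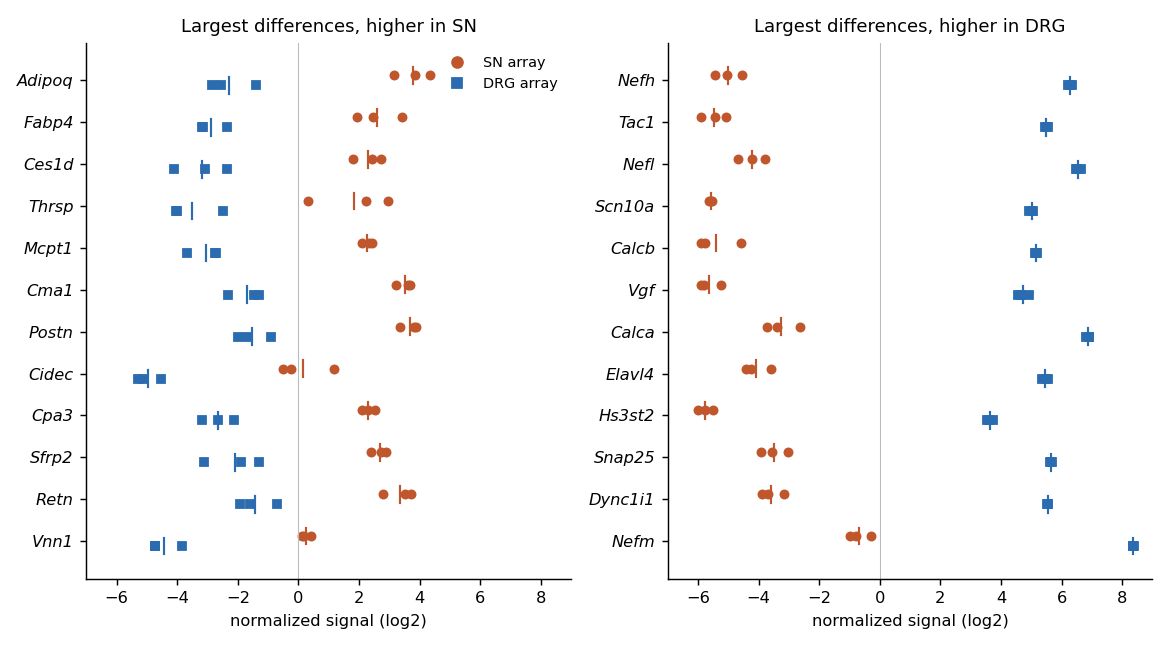
Normalized signal (log2, x axis) of the 12 genes with the largest difference in each direction among those above background on all 6 arrays (y axis). Each SN array is a circle and each DRG array a square, with vertical lines at the means. Nefh differs by -11.28 and Adipoq by 6.06, and the DRG arrays of the neuronal genes lie close together.

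Neuropeptides, the signals that small sensory neurons release, were measured in 14 of 18 listed genes. Of these, 9 were higher in DRG and 1 in SN, with a median of -5.61. Calca, which encodes calcitonin and the vasodilator CGRP, had -3.72, -3.38 and -2.65 in SN and 6.82, 6.90 and 6.89 in DRG, a difference of -10.12 (SE 0.27, adjusted p = 7.01e-07). Tac1, the precursor of substance P, had -5.44, -5.89 and -5.09 in SN and 5.54, 5.51 and 5.44 in DRG, a difference of -10.97. Of the other probes of Calca 1 was called the same way and 1 was not called. Calcb differed by -10.55, somatostatin (Sst) by -7.61 and Adcyap1, which encodes PACAP, by -5.08. Vip, the vasoactive intestinal peptide, was the exception, with -0.60, -1.72 and -0.32 in SN and -2.97, -4.05 and -3.07 in DRG. All 3 SN arrays were above the DRG arrays, and the difference was 2.48 (SE 0.45, adjusted p = 0.00266). Galanin (Gal, -0.64) and Npy (-1.03, adjusted p = 0.181) were not called.

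Many neuropeptide genes are known to respond to cyclic AMP through an element whose core is TGACG. In the 250 bases before the start of each gene (RefSeq, build GRCr8), the letters TGACG on either strand were present in 9 of the 15 neuropeptide genes with a promoter entry and in 19% of all 27457 promoters. The full palindrome TGACGTCA, which holds TGACG on both strands, was present in 2 of the 15 (Cartpt and Ucn) and in 1.7% of all promoters. Calcb, Sst and Adcyap1, which were higher in DRG, were not among the 9. Such a gene either lacked the letters in these 250 bases or had no promoter entry. Vip and Gal, which were not higher in DRG, were among the 9. A link between the letters and the tissue difference was not tested. The promoters of Calca and Tac1 are shown because both genes are described above and hold the letters, with TGACG or its complement CGTCA in capitals. A match describes letters only, and no binding was measured.

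Calca (GRCr8, chr1:178317530-178317779, - strand): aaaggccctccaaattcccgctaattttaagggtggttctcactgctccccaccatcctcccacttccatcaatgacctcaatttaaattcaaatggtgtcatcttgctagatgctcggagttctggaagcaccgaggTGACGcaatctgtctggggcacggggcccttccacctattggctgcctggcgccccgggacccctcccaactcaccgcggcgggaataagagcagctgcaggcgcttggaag
Tac1 (GRCr8, chr4:36645333-36645582, + strand): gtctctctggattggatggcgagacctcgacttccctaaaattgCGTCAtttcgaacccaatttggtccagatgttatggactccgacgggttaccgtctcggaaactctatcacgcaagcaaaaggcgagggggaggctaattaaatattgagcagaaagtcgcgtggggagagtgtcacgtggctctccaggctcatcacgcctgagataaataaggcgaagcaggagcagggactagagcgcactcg

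Receptors for growth factors and their ligands lay on different sides. The low-affinity neurotrophin receptor Ngfr had 0.56, 0.85 and 0.36 in SN and 5.01, 4.98 and 4.88 in DRG, a difference of -4.37 (SE 0.14, adjusted p = 1.65e-06). The GDNF family co-receptor Gfra3 differed by -4.66 and Ret, its signalling partner, by -3.29. Of 10 receptor genes 5 (50%) were higher in DRG, beside 16.3% of all probes, and none was higher in SN. Gfra1 was at 4.02 to 4.35 in SN and 4.26 to 4.29 in DRG. Among 18 trophic ligands, 8 were higher in SN and 2 in DRG, where 21.4% of all probes were higher in SN. Neurturin (Nrtn), a ligand of the GDNF family, had 1.82, 1.95 and 2.20 in SN and -0.00, -0.34 and -0.49 in DRG, a difference of 2.27 (SE 0.17, adjusted p = 5.37e-05). Ntf3 (1.97), the Schwann cell factor Cntf (2.09), Igf1 (1.81), Igf2 (2.78) and Fgf7 (2.78) were also higher in SN. Bdnf was the largest exception, at -6.51, -6.78 and -7.49 in SN and 0.26, 0.30 and 0.08 in DRG, a difference of -7.14 with 1 SN array well above background, and pleiotrophin (Ptn) differed by -1.39. Gdnf was not called (-0.66).

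Schwann cell genes differed by little beside those of neurons. Of 21 tested genes of peripheral myelin, 13 (61.9%) were higher in SN and none in DRG, with a median of 1.44. Pmp2, a lipid carrier of peripheral myelin, had 8.01, 8.10 and 8.16 in SN and 6.38, 6.17 and 5.64 in DRG, a difference of 2.03 (SE 0.20, adjusted p = 1.69e-04). The groups did not overlap, as for most tested probes, but both tissues had strong signal. Mal, a raft protein of myelin, differed by 2.63, Cldn19 by 2.54, the gap junction protein Gjb1 by 2.19 and Cd9 by 2.01. Pmp22 (0.75) passed the p-value limit but not the 2-fold limit. Among 20 regulators of the Schwann cell lineage, 6 were higher in SN and 2 in DRG, a share of 40% called beside 37.7% of all probes. Egr2 (Krox20), which drives myelination, differed by 1.65 and Sox10 by 1.07, while the cell adhesion genes Cdh2 (-2.63) and L1cam (-2.04) were higher in DRG. Of 29 genes of cholesterol and myelin lipid synthesis, 13 were higher in SN and none in DRG, with a median of 0.92. The 44.8% called stands beside 37.7% of all probes called and 21.4% higher in SN. The largest were the enzymes of myelin glycolipids, Ugt8 (2.29) and Fa2h (2.06), the ceramide synthase Cers2 differed by 1.69, and Idi1 of the cholesterol pathway was 2.83-fold higher.

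The satellite glia list did not move as 1 group. Fabp7, the brain fatty acid binding protein of satellite cells, was not well above background on any SN array and had 2.69, 3.22 and 3.22 in DRG, at least 698-fold more. The channel gene Kcnj3 differed by -1.01, but Slc1a3 (1.05) and Hmgcs1 (1.31) were higher in SN, and of 9 tested genes 5 were not called. The 44.4% called stands beside 37.7% of all probes. Kcnj10, a defining potassium channel of these cells, passed background on 1 DRG array and no SN array and was not tested. With quantile normalization none of the list was called higher in SN.

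**Figure D4:**
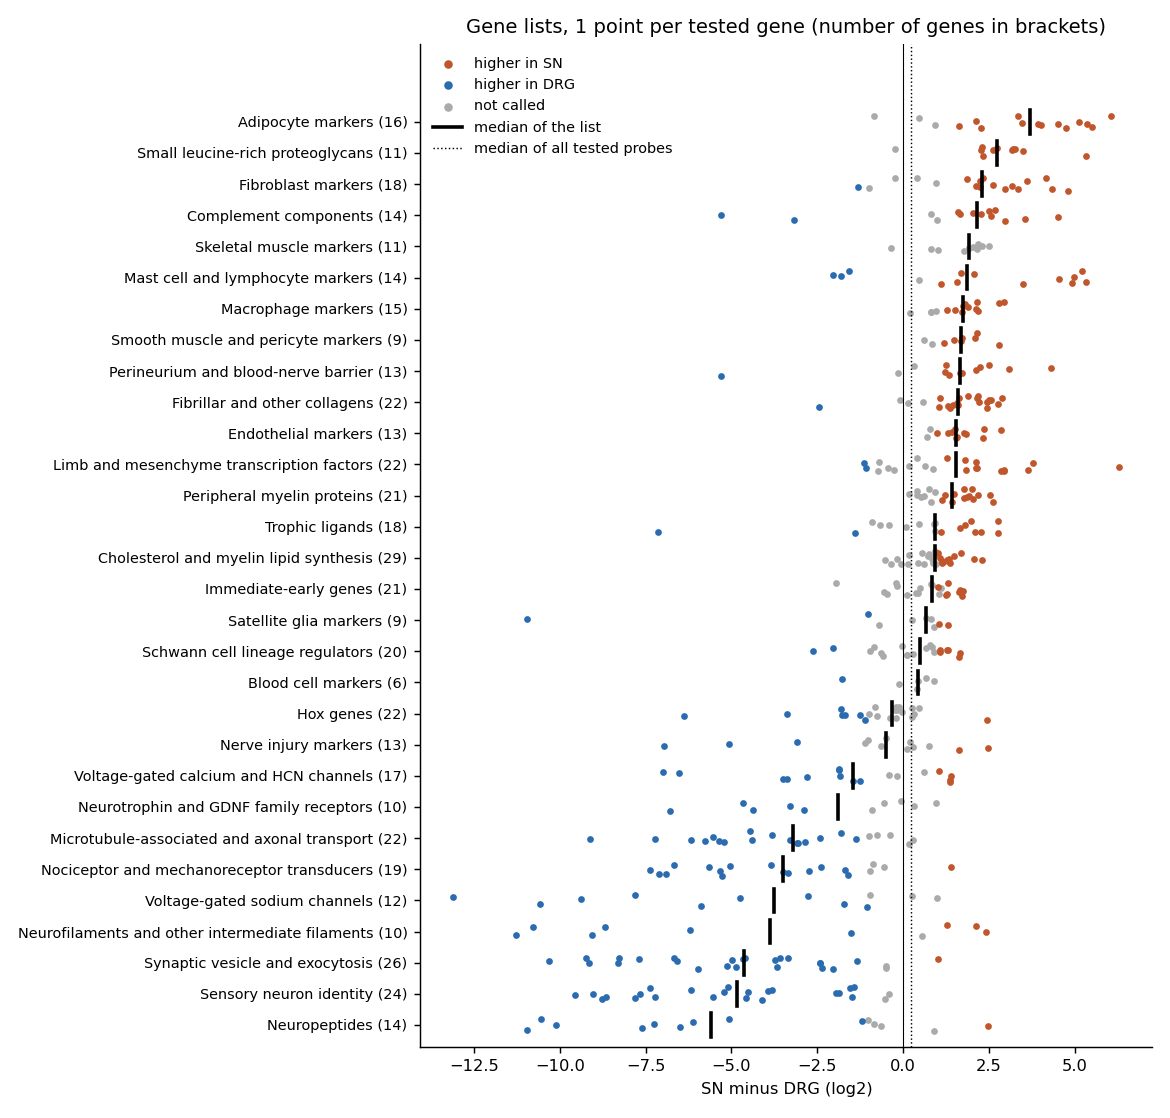
SN minus DRG difference (log2, x axis) of every tested gene in the 30 lists (y axis, with the number of genes), coloured by call, with a bar at the median of each list and a dotted line at the median of all tested probes, 0.23. Neuronal lists lie to the left, down to a median of -5.61 for neuropeptides, and fat, matrix, immune and vessel lists to the right, up to 3.70 for adipocyte markers.

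Connective tissue and fat genes were mostly higher in SN. Over the perineurial, fibroblast, collagen, proteoglycan and adipocyte lists, with the 11 uncalled muscle markers counted in, 63 of 90 tested genes were higher in SN, which is 70% against 21.4% of all probes, and 3 were higher in DRG. Of 18 fibroblast markers, 13 were higher in SN and 1 in DRG, with a median of 2.29. The Wnt inhibitor Sfrp2 had 2.90, 2.74 and 2.41 in SN and -3.13, -1.31 and -1.91 in DRG, a difference of 4.80 (SE 0.45, adjusted p = 1.49e-04). Sfrp4 differed by 4.35, dermatopontin (Dpt) by 4.18 and the fibroblast receptor Pdgfra by 2.63. Postn, which encodes the matrix protein periostin, had 3.87, 3.83 and 3.35 in SN against a DRG mean 5.21 lower.

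Matrix genes followed. Of 22 collagen genes 18 were higher in SN, and Col4a3, a chain of specialized basement membranes, was higher in DRG (-2.44). The fibrillar Col3a1 had 8.98, 8.98 and 8.94 in SN and 6.57, 6.89 and 6.86 in DRG, a difference of 2.19. Col6a1 differed by 2.89 and the basement membrane chain Col4a1 by 2.21, whereas Col1a1 differed by 1.31. Of 11 small leucine-rich proteoglycans, which organise collagen fibrils, 10 were higher in SN, with a median of 2.75. Decorin (Dcn) had 7.42, 7.55 and 7.76 in SN and 4.98, 5.15 and 5.60 in DRG, a difference of 2.33 (SE 0.19). Keratocan (Kera), not well above background on any DRG array, was at least 13-fold higher in SN.

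Barrier genes of the perineurium were also higher in SN, 10 of 13 tested. The tight junction gene Cldn1 had 2.77, 2.62 and 2.87 in SN and -0.49, -0.45 and -0.05 in DRG, a difference of 3.08 (SE 0.15, adjusted p = 9.52e-06). The keratin Krt19 differed by 4.32, occludin (Ocln) by 2.14 and the glucose transporter Slc2a1 by 1.73. Perp, a desmosomal protein gene, was the member higher in DRG (-5.29), with 1 SN array well above background.

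Among named genes above background on all 6 arrays, the largest difference in favour of SN was that of a fat gene. Adiponectin (Adipoq) had 4.36, 3.85 and 3.14 in SN and -2.87, -1.41 and -2.55 in DRG, a difference of 6.06 (SE 0.46, adjusted p = 6.28e-05), a fold of 66.8. Fabp4 had 3.43, 2.47 and 1.95 in SN and -3.15, -2.36 and -3.19 in DRG, a difference of 5.52. The groups did not overlap, and SN replicate 1, with the high muscle markers, was highest for both genes. Of 16 tested adipocyte markers 13 were higher in SN and none in DRG, and the same number was called without SN replicate 1, with a median of 3.41 against 3.70. The lipid droplet gene Cidec differed by 5.12, resistin (Retn) by 4.76 and lipoprotein lipase (Lpl) by 3.47. Cidea (-0.84) was not called, and leptin (Lep) and Ucp1 were not tested for lack of signal.

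Vessel genes were also mostly higher in SN, 18 of 22 tested (81.8% against 21.4% of all probes) with none higher in DRG. Of 13 endothelial markers 11 were higher in SN and none in DRG, with a median of 1.55. Vwf had 3.17, 3.28 and 3.09 in SN and 0.90, 1.11 and 0.52 in DRG, a difference of 2.33 (SE 0.17, adjusted p = 4.76e-05), and the endothelial cadherin Cdh5 differed by 2.85. Of 9 smooth muscle and pericyte markers 7 were higher in SN, among them the smooth muscle gene Tagln (2.16).

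Most mast cell genes tested were higher in SN. Mcpt1 had 2.42, 2.32 and 2.09 in SN and -2.75, -3.68 and -2.73 in DRG, a difference of 5.33 (SE 0.27, adjusted p = 1.23e-05). Cma1 differed by 5.22, the carboxypeptidase Cpa3 by 4.97, Tpsb2 by 4.55 and Ms4a2, a chain of the IgE receptor, by 4.93 with 1 DRG array well above background. The histamine-forming enzyme Hdc differed by 1.56, and the tryptase Tpsab1 was not called (0.46). Kit, the stem cell factor receptor, which neurons also use, was lower in SN (-1.81). Of 4 tested T cell genes, Cd3g (2.07), Cd8a and Cd4 were called higher in SN, and Cd3d was higher in DRG (-1.57). Cd8a and Cd4 were not well above background on any DRG array. Of 15 macrophage markers 11 (73.3%) were higher in SN and none in DRG, with a median of 1.74. Mrc1 (CD206) had 2.64, 2.38 and 2.55 in SN and 0.38, 0.14 and 0.69 in DRG, a difference of 2.12. The antigen presentation genes RT1-Da (2.93) and Cd74 (2.81) were the largest, while Cx3cr1 was not called (0.19). Of 14 complement genes 10 were higher in SN, led by Cfd (4.51), also known as the adipocyte product adipsin, and by C6 (3.56) and Cfb (2.97). Cfi, a protease that inactivates complement, was higher in DRG, with -3.11, -2.93 and -3.38 in SN and 2.19, 2.20 and 2.13 in DRG, a difference of -5.31 (SE 0.13, adjusted p = 5.76e-07). Cd55, another inhibitor of complement, was higher in DRG as well (-3.19).

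Transcription factors of position and mesenchyme differed gene by gene. Of 22 Hox genes 7 were higher in DRG, beside 16.3% of all probes, and 1 was higher in SN, beside 21.4%. The 36.4% called in either direction is near the 37.7% of all probes. Their median difference was -0.31, against 0.23 over all tested probes. Hoxd1, a homeobox gene of nociceptors, was at least 79.9-fold lower in SN, with 0.06, -0.15 and 0.05 in DRG, and Hoxb8 at least 9.85-fold lower. Hoxc11 was the gene higher in SN, at 1.51, 1.39 and 1.26 in SN and -1.67, -0.69 and -0.88 in DRG, a difference of 2.46 (SE 0.26, adjusted p = 2.44e-04). Of 22 limb and mesenchyme factors 12 were higher in SN and 2 in DRG, 63.6% called beside 37.7% of all probes. Emx2, a homeobox gene, had -0.84, -1.19 and -1.46 in SN and was not well above background on any DRG array, and was at least 25.5-fold higher in SN. Tbx15 differed by 3.63, Tbx18 by 2.93 and Prrx1, which marks connective tissue of the limb, by 2.93.

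Genes of injury and of activity differed in part in this tissue labelled as day 0. Atf3, a transcription factor of injured neurons and Schwann cells, had 2.99, 3.20 and 3.40 in SN and 1.40, 1.63 and 1.67 in DRG, a difference of 1.63 (SE 0.14, adjusted p = 1.02e-04). Sprr1a (0.21) and Jun (0.11) were not called, and Reg3b was at least 27.5-fold lower in SN. In the list of nerve injury markers, 2 of 13 tested genes were higher in SN and 3 higher in DRG, with a median of -0.49. The 38.5% called is near the 37.7% of all probes. Of 21 immediate-early genes 8 (38.1%) were higher in SN, beside 21.4% of all probes, and none was higher in DRG. Their median difference was 0.84, against 0.23 over all tested probes. Arc differed by 1.74 and Nr4a2 by 1.73, whereas Fos (-0.46, adjusted p = 0.388) was not called.

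A further set was the genes measured by RT-PCR in the study. Ngfr (-4.37) and the morphogen Shh (-2.29) were higher in DRG and Gdnf (-0.66) was not called. Pirb, a receptor of the family that holds Lilrb3, differed by 1.42. Olr1, which the study names Oldlr1 and which is not an olfactory receptor, was not well above background on any of the 6 arrays. Kng1 was so on 1 DRG array, and neither was tested. Olfactory receptors were counted because the study examined them in nerve. Of 1112 olfactory receptor probes, 270, 233 and 239 were well above background on the SN arrays and 271, 130 and 167 on the DRG arrays. DRG replicate 1, on the slide of the SN arrays, thus lay with SN in this count and the DRG arrays of the other slide lay lower. Of 213 tested, 25 were called higher in SN and 10 higher in DRG, 16.4% in all against 37.7% of all probes, with a median difference of 0.14. Their median normalized signal was -4.79 in SN and -4.89 in DRG. Within the shared slide, against DRG replicate 1 alone, 38 were called higher in SN and 9 higher in DRG. Without the filter on dim probes 29 were higher in SN and 30 higher in DRG, so that the balance towards SN was lost.

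Whether the tissue difference could be seen again in other arrays was checked at 1, 4, 7 and 14 d. The nerve had then been cut, and these arrays had other scan dates and slides than those of 0 d. Injury, tissue, scan date and slide thus act together. In these arrays 34.5%, 35.4%, 35.6% and 34% of the probes were called between the tissues. Of the 5015 probes higher in DRG at 0 d, 3395 (67.7%) had the same call on all 4 later days and 66 had the opposite call on a later day. Of the 6581 higher in SN, 2493 (37.9%) had the same call on all 4 days and 71 the opposite on any. The median fold at 0 d was 2.71 for probes higher in SN, nearer the 2-fold limit than the 4.46 for those higher in DRG. Its part in the shares that kept their call was not tested. By list, all 17 called microtubule and transport genes, all 9 sodium channels, 22 of 24 synaptic genes and 19 of 22 genes of sensory neuron identity kept their call on all 4 days. All 11 macrophage and all 12 complement genes, 12 of 14 fibroblast and 11 of 13 adipocyte genes did so as well. Adipoq was higher in SN by 5.57, 5.47, 5.49 and 5.33 on the later days, and Calca higher in DRG by differences of -9.78, -9.35, -9.08 and -9.77.

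Myelin and lipid genes did not keep their calls. Of 13 myelin genes called at 0 d, 2 were called the same way on all 4 later days, and of 13 lipid genes none was. The median difference of the lipid list was 0.92 at 0 d and -0.06, -0.87, -1.04 and -0.84 at 1, 4, 7 and 14 d. Ngfr, which injured Schwann cells are known to make, went from -4.37 to -2.25, -0.36, -0.34 and -0.75, with an adjusted p of 3.56e-10 or less for each change. The change from 0 d passed an adjusted p under 0.05 for 39.3%, 47.3%, 40.9% and 36.3% of all probes at 1, 4, 7 and 14 d. The arrays of 0 d shared 1 scan date, and all later arrays had other scan dates and other slides. Probes well above background numbered 26941 to 32602 per array at 0 d and 33079 to 35573 on the later days. A change from 0 d therefore cannot be told apart from a difference of scan date or slide.

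**Figure D5:**
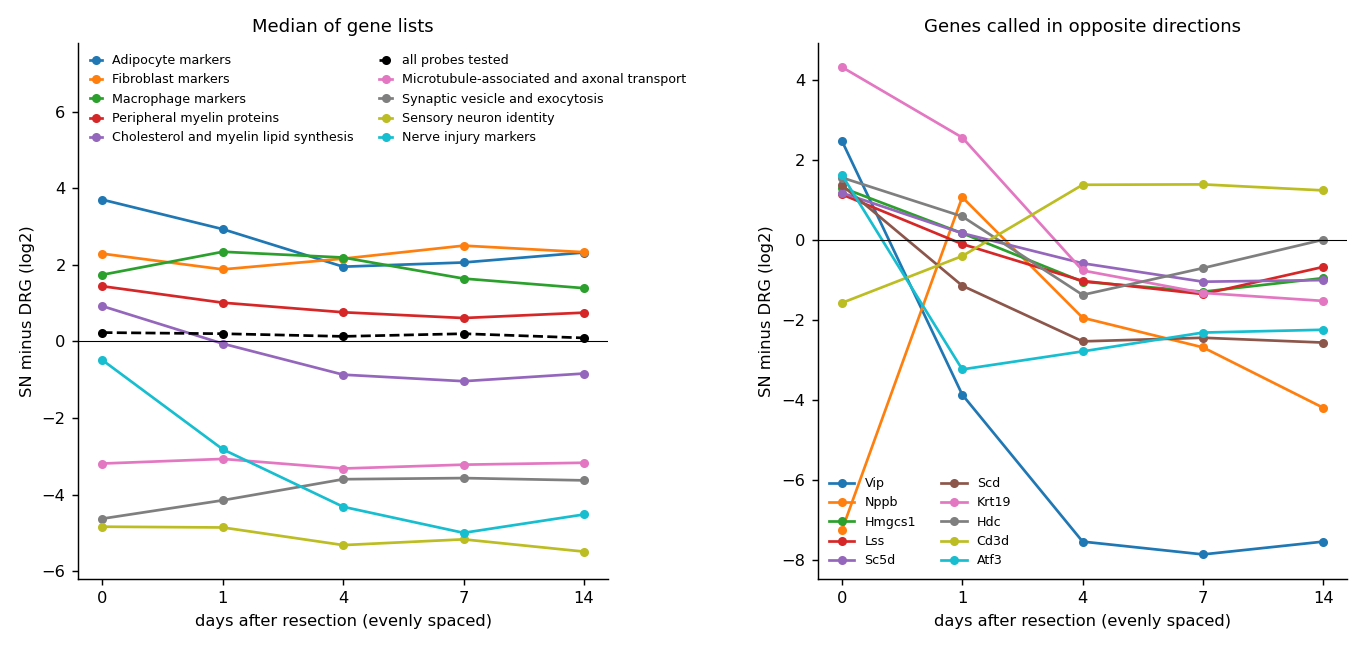
SN minus DRG difference (log2, y axis) at 0, 1, 4, 7 and 14 d after resection (x axis, evenly spaced), as the median of 9 gene lists and of all tested probes (left, dashed) and for the 10 list genes that were called in opposite directions at 0 d and on a later day (right). The sensory neuron list stays between -4.84 and -5.49, the lipid synthesis list goes from 0.92 to -1.04 at 7 d, and Vip from 2.48 to -7.85.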

How the data were processed

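The authors hybridized Cy3-labelled cRNA to 1-colour Agilent rat arrays and read them with Feature Extraction (version 10.5.1.1, annotation rn4). The deposited intensity values are background-subtracted and detrended within an array, per the file headers. The authors' deposited log2 values of the same arrays, quantile-normalized over all 30, served as an alternative. Outlier spots were left out, spots of a probe averaged, and the 75th percentile over non-control probes of each array was subtracted from log2 intensity. Of 41012 probes, 30743 that exceeded background on all 3 arrays of SN or of DRG were tested on the 6 arrays with limma (3.58.1, R 4.3.3), and the fit was tested on simulated data. Later days were fitted on the other 24 arrays in 8 groups, and changes from 0 d on all 30. Where a tissue had no array above background, folds are lower bounds against the dimmest detected signal. Symbols came from the array annotation, updated through RefSeq (GRCr8). Of several probes the brightest was used. Named genes are members of 30 lists, the 12 largest differences each way, and the genes of the study's RT-PCR. Members and lists were chosen with earlier results of these data known. No spot was saturated. The arrays have no read depth, and their number limits the precision. No pairing by replicate number was used. Same-numbered deviations from the tissue means correlated at -0.19, -0.18 and 0.32, and different-numbered ones at -0.32 to 0.36. With 3 arrays per tissue these values cannot tell whether samples were paired. Some genes of the lists are not reported here by name.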

Additional observations from a re-analysis of the deposited data

Results flagged for a closer look

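Of the list genes, 10 were called in 1 direction at 0 d and in the other on a later day, with a change that passed the interaction test in a limma fit on all 30 arrays. Such changes cannot be told apart from scan date and slide, which differed between 0 d and the later days. Vip went from 2.48 to -7.85 at 7 d (adjusted p = 5.99e-14), and was lower in SN on all 4 later days. Atf3 went from 1.63 to -3.23 at 1 d (1.94e-15) and stayed lower in SN. Nppb, a natriuretic peptide of itch neurons, went from -7.25 to 1.07 at 1 d (3.36e-13) and was lower in SN again afterwards. Krt19 went from 4.32 to -1.52 at 14 d (1.45e-11). Of the lipid synthesis genes, Hmgcs1 went from 1.31 to -1.29 (1.53e-10), Lss from 1.14 to -1.35 (1.78e-07) and Sc5d from 1.18 to -1.04 (6.64e-10), each at 7 d, and Scd from 1.37 to -2.56 at 14 d (1.75e-07). Hdc, the histamine-forming enzyme, went from 1.56 to -1.37 at 4 d (7.09e-10). Cd3d went from -1.57 to 1.39 at 7 d (2.38e-07).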

How the results depend on the processing

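Over 15 other settings and the omission of each array, probes higher in DRG stayed within 1.5 times of 5015 (3768 to 6068), and probes higher in SN did so too, except after normexp background correction with quantile normalization (4328). Leaving out 1 array gave 6325 to 6819 probes higher in SN and 4899 to 5122 higher in DRG, and for genes of the lists 176 to 185 and 136 to 140. Tuba8 (0.29, not called) became higher in DRG without SN replicate 1 (-1.08). Its range over the omissions was -1.08 to 0.99, and it was the 1 reversed value among the list and top genes. Without the filter on dim probes 29 olfactory receptors were higher in SN and 30 higher in DRG, against 25 and 10 with it, and 6 were higher in SN and 4 in DRG when all 6 arrays had to be above background. Within the shared slide, which holds 1 DRG array, 38 were higher in SN, an alternative chosen after seeing the data. The replicate number as a block gave 6610 probes higher in SN and 5021 higher in DRG, and changed the call of 2 of 482 named genes. The causes were not tested. Signal near background limits the dim probes, of which 746 were above it in DRG only and 385 in SN only.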
